A study of Drosophila melanogaster with 12 samples.

Results

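The genes described here are the nuclear genes of oxidative phosphorylation in *Drosophila* and the paralogues whose symbols add an L to the name of a subunit. They were taken from the count table by symbol. A row was a member if its symbol began with ND-, COX, ATPsyn, UQCR- or with Sdh followed by A, B, C or D, or if it was *RFeSP* or *Cyt-c1*. This took 82 of 17807 rows. Of these, 63 were subunits, with 33 in complex I, 4 in complex II, 8 in complex III, 7 in complex IV and 11 in complex V. Another 18 were paralogues with a symbol ending in L, or in L and a digit. The remaining member, *ND-MNLL*, ends in L because its mammalian namesake, the MNLL subunit of complex I, does. It had 0 counts in all 12 libraries, and its 720 bp of exon lie wholly within exons of *CG45089* on the same strand.

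RNA came from whole adult flies, 20 per replicate, in 4 groups of 3 biological replicates each, which are *da-GAL4>UAS-bmm* males, *da-GAL4/+* males, *da-GAL4>UAS-bmm* females and *da-GAL4/+* females. *bmm* (*brummer*) encodes the main triglyceride lipase of the fly, and the *daughterless* promoter drives it in all tissues through GAL4. All 4 groups carry the driver, and controls lack the *UAS-bmm* transgene. Every group was fed SY10/10 medium at 25 °C and mated for 48 hours before the sexes were separated, and the sources used here give no age at freezing. The study raised *bmm* to ask how greater lipolysis affects the lifespan and fitness of flies, and the counts show how the genes of the respiratory complexes stood in each sex and genotype.

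Oxidative phosphorylation passes electrons from NADH (complex I) and succinate (complex II) through complexes III and IV to oxygen, and complex V, the ATP synthase, uses the proton gradient so formed to make ATP. Complexes I, III, IV and V combine nuclear subunits with subunits encoded by mitochondrial DNA, while complex II is wholly nuclear and also works in the tricarboxylic acid cycle. In *Drosophila*, many nuclear genes for mitochondrial proteins have a duplicate that is used mainly in the testis, where the mitochondria of the spermatid fuse and then elongate along the sperm tail.

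The total count per library was at least 20068187 (*bmm* female replicate 1) and at most 34799635 (control male replicate 1), so that 3 counts, taken as the floor of detection, stood for between 0.0798 and 0.156 CPM (the deposited unit, counts scaled by the normalized size of the library). *bmm* itself lay between 10620 and 12050 CPM in *bmm* males, against 192 to 474 CPM in control males, and between 4455 and 5122 CPM in *bmm* females, against 131 to 147 CPM in control females. The label of each library thus matched its transgene. The sum of 19 yolk and eggshell genes, markers of female tissue, was 136, 96.9 and 112 CPM in *bmm* male replicates 1, 2 and 3, but 3479, 823 and 432 CPM in control male replicates 1, 2 and 3, against 58610 to 73860 CPM in the 6 female libraries. All 18 of these genes that were tested in males were called lower in *bmm* males, where 325 of all 13632 genes tested were called lower. Results in males are therefore also given without control male replicate 1 where that changes a call. In whole flies, fewer cells of a type and less RNA per cell cannot be told apart.

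Levels within a complex were compared as CPM per kb of exon, averaged over the 4 groups. The most abundant subunits were *ATPsynC* (871 CPM per kb), which forms the membrane ring of the ATP synthase, and *ATPsynbeta* (677 CPM per kb), its catalytic subunit. At the other end of complex V, *ATPsyndelta* of the central stalk stood at 54.2 CPM per kb, 16.1 times lower than *ATPsynC*. Its annotated exons span 3817 bp, of which 471 bp are coding, so this order depends on the length used. In complex I, *ND-MLRQ* stood at 428 and *ND-B18* at 47.7 CPM per kb, an 8.97-fold range over 32 subunits. *ND-B8* was far below these at 0.77 CPM per kb, with 130 counts in all 12 libraries together. The 4 subunits of complex II were the most even, from *SdhC* at 155 to *SdhD*, the other membrane anchor, at 121 CPM per kb. Complex III ran from the core protein *UQCR-C1* (308 CPM per kb) to *UQCR-11* (54.2 CPM per kb) and complex IV from *COX5A* (391 CPM per kb) to *COX7C* (181 CPM per kb). With *ND-B8* left aside, the range within a complex thus ran from 1.28-fold in complex II to 16.1-fold in complex V. Shared exon sequence limits some of these levels, since 6 subunits overlap another gene on the same strand and 29 overlap an exon on the opposite strand, and the sources used here do not give the strand setting of the counting. Examples among the genes named below are *ATPsyndelta*, with 1358 bp opposite *CG2962*, *UQCR-6.4*, with 227 bp opposite *POSH*, and *RFeSP*, with 148 bp opposite *CG14352*. *SdhB* has 129 bp opposite *CG15237*, *ND-B14.5A* 18 bp opposite *Cyp4d14* and *UQCR-C2* 4 bp opposite *Syx8*. *UQCR-14*, a partner of a paralogue, lies wholly opposite *CG32576*. On the same strand, *ND-MWFE* shares 128 bp with *Nrk*, and *ATPsynC* shares 99 bp with other annotated genes.

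The first question was whether *bmm* overexpression changed the subunits. In females it did for few of them and by little. *ND-AGGG*, an accessory subunit of complex I, was higher, while *RFeSP*, the Rieske iron-sulfur protein of complex III, *UQCR-C2*, a core protein of the same complex, and *ND-B14.5A*, an accessory subunit of complex I, were lower. These 4 were the subunits called, meaning an adjusted p under 0.05 (edgeR's exact test, Benjamini-Hochberg adjustment over all genes), among 62 that passed the filter on low counts. Over all 10488 genes tested in females, 14.2% were called, 9.8% higher and 4.41% lower, and 4 of 62 is a smaller share than that background. None of the 62 was past an absolute log2 fold change of 1 as well, the second threshold of the study, which 1.41% of all genes passed together with the first. The fold changes ran from 0.81 to 1.34, with a median log2 fold change of −0.04 and standard errors of at most 0.10, and 55 of the 62 subunits lay within 0.15 of 0 on the log2 scale. The median over all genes tested was −0.01. Subunits with a negative fold change numbered 42 and those with a positive one 20. Markers of the ovarian germline moved in the same comparison, with 7 of 11 called lower in *bmm* females and a median log2 fold change of −0.18, and their part in the lower subunits was not tested.

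**Figure D1:**
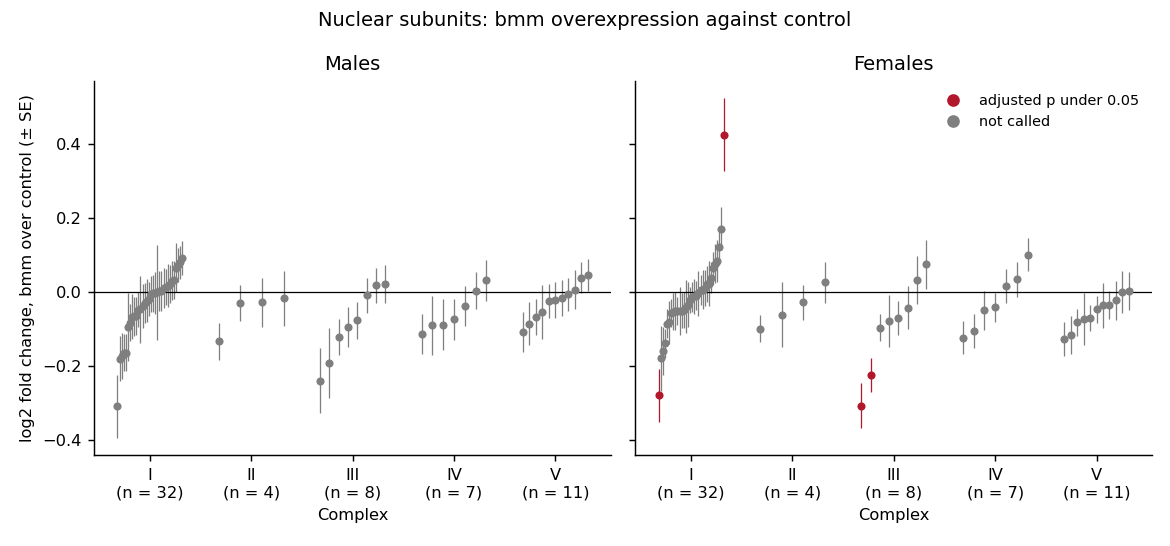
Log2 fold change of each nuclear subunit between *bmm* overexpression and control, with its standard error, by complex, in males (left) and in females (right). Red points are called at an adjusted p under 0.05 and grey points are not. The 4 called subunits are all in females, and all but *ND-AGGG*, at 0.43, lie below 0. *ND-B8*, with 124 counts in males, is left out of the male panel.

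*ND-AGGG* (FBgn0058002, 3L, from 24976254 to 24977118 in the BDGP6.54 annotation) was at 56.8, 71.0 and 53.7 CPM in *bmm* female replicates 1, 2 and 3, against 50.9, 40.4 and 46.2 CPM in control females. The *bmm* libraries all lay above the controls, replicate 2 furthest. The log2 fold change was 0.43 with a standard error of 0.10 (adjusted p = 0.0019). The *bmm* males had 52.1, 55.2 and 53.1 CPM of it, inside the range of the controls at 64.4, 44.5 and 49.8 CPM. The log2 fold change in males was 0.00 (adjusted p = 1.0). The difference between the sexes had a log2 value of −0.47 (standard error 0.20) and did not pass its own test (adjusted p = 0.26, edgeR's quasi-likelihood test).

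*RFeSP* (FBgn0021906, 2L, from 1612429 to 1614160) was at 142, 182 and 164 CPM in *bmm* females, below each of the controls at 212, 196 and 207 CPM. The log2 fold change was −0.31 with a standard error of 0.06 (adjusted p = 0.00059). *UQCR-C2* (FBgn0250814, 3L, from 16584124 to 16586111) was at 211, 250 and 234 CPM in *bmm* females and at 268, 282 and 276 CPM in control females. Again no *bmm* library reached the controls, with a log2 fold change of −0.22 and a standard error of 0.05 (adjusted p = 0.0031). In males the libraries of the 2 genotypes overlapped for both genes, with log2 fold changes of −0.24 for *RFeSP* (adjusted p = 0.35) and −0.19 for *UQCR-C2* (adjusted p = 0.58). *bmm* male replicate 1 was the high library of its group for both genes and control male replicate 1 the low one.

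*ND-B14.5A* (FBgn0025839, X, from 2172526 to 2173432) was at 30.6, 38.0 and 38.3 CPM in *bmm* females, below control females at 43.5, 44.0 and 44.95 CPM. The log2 fold change was −0.28 with a standard error of 0.07 (adjusted p = 0.013). In males the *bmm* libraries, at 40.6, 34.6 and 35.3 CPM, were also all below the controls, at 41.6, 44.8 and 49.5 CPM. The log2 fold change there was −0.31, and its adjusted p was 0.098, but 0.048 without control male replicate 1, the library with most yolk and eggshell RNA, and 0.037 by DESeq2. It was the member nearest to a call in males.

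**Figure D2:**
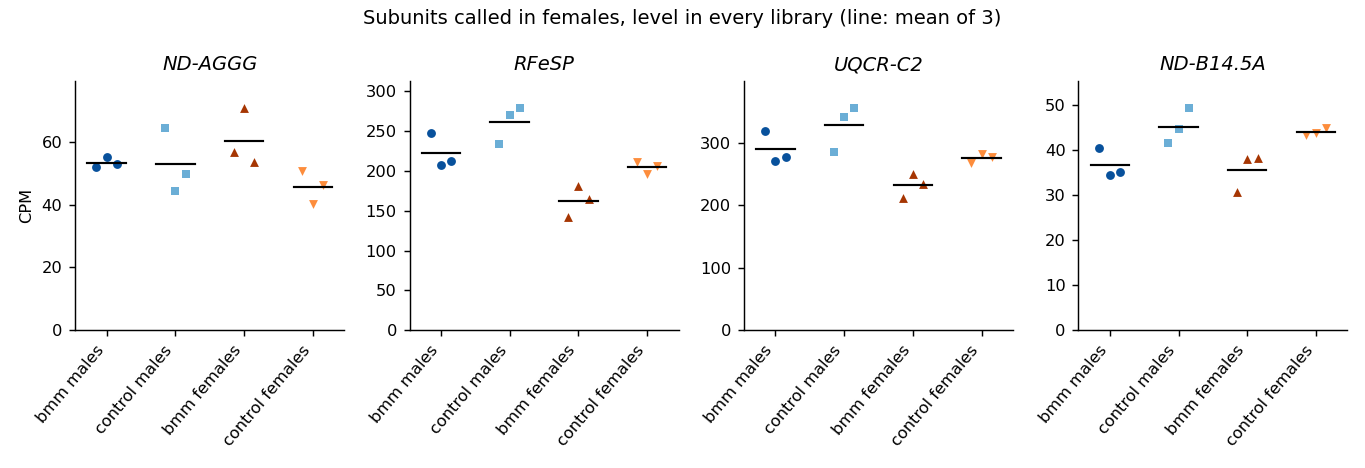
CPM of the 4 subunits called in females in each of the 12 libraries, by group, with a line at the mean of the 3 libraries. In females the *bmm* libraries lie all above the controls for *ND-AGGG* and all below them for *RFeSP*, *UQCR-C2* and *ND-B14.5A*; in males the genotypes are separate only for *ND-B14.5A*.

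The 4 female calls were kept by edgeR's quasi-likelihood test, which called 5 subunits, by DESeq2, which also called 5, under RLE and library size scaling and without the filter. limma-trend on log2(CPM + 1) called none of the 4 (adjusted p between 0.14 and 0.21). *ND-B14.5A* was no longer called without *bmm* female replicate 1 (adjusted p = 0.10), control female replicate 2 (0.067) or control female replicate 3 (0.071), and *UQCR-C2* was not called without control female replicate 2 (0.052).

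In males, 0 of 63 subunits were called, against 4.31% of 13632 genes tested, and 2 had an unadjusted p under 0.05. None was past both thresholds, which 1.5% of genes were. DESeq2 called 1 (*ND-B14.5A*), and limma-trend and edgeR's quasi-likelihood test called 0. Without *ND-B8*, whose few counts give no precision, fold changes ran from 0.81 to 1.07, with a median log2 fold change of −0.03 and standard errors from 0.04 to 0.13. The test of whether the response to *bmm* differed between males and females called 0 of 63 subunits, with 7 at an unadjusted p under 0.05, against 2.91% of 13988 genes called. Past both thresholds were 1.21% of genes and again 0 subunits. DESeq2 and limma-trend also called 0 there.

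Summed over each complex, the level with *bmm* overexpression stood between 0.91 and 1.01 times that of controls. The ratio furthest from 1 was that of complex III in females, at 1520, 1700 and 1600 CPM in *bmm* libraries against 1762, 1776 and 1756 CPM in controls, a ratio of 0.91. The groups did not overlap there. The genotypes were also separate for complex V in males, in the other direction, at 4327, 4322 and 4361 CPM with *bmm* and 4292, 4240 and 4306 CPM in controls. Its subunits did not rise as a whole, since 8 of the 11 had a negative log2 fold change, 3 a positive one, and 0 were called. The most abundant, *ATPsynC* and *ATPsynbeta*, averaged 1177 and 1292 CPM in *bmm* males, against 1136 and 1241 CPM in control males. Complex III in males had a ratio of 0.94, at 1848, 1696 and 1723 CPM with *bmm* and 1771, 1875 and 1931 CPM in controls, and overlapped. For complexes I, II, IV and V the ratios lay between 0.94 and 0.98 in females and between 0.97 and 1.01 in males.

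The second comparison was between the sexes, for which the study states no test. Here the complexes parted. All 4 subunits of complex II were higher in males, 7 to 9 of the 11 subunits of complex V were lower, depending on genotype, and complex I held both. In *bmm* flies, edgeR's quasi-likelihood test called 38 of 63 subunits, 19 higher and 19 lower in males. Of 13988 genes, 91.5% were called, 51.7% higher and 39.8% lower. In controls it called 40 of 63, 25 higher and 15 lower, where 92.5% of genes were called, 53.6% higher and 38.9% lower. The share of subunits called was below that background in both genotypes. With a log2 fold change beyond 1 required as well, 1 subunit (*ND-B8*) passed in each genotype, against 66.8% of genes in *bmm* flies and 68.6% in controls.

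Which subunits count as higher or lower depends on how the libraries of such different bodies are scaled. The median log2 difference of all genes tested, males minus females, was 0.43 in *bmm* flies and 0.54 in controls under TMM, while the median subunit was at −0.02 and 0.02. Relative to the median gene, the median subunit was therefore lower in males. That median covers 13988 genes, while 13632 passed the filter in males by themselves and 10488 in females by themselves. The part of genes with few female counts in it was not tested. Scaling by library size alone moved the median of all genes to 0.69 in *bmm* flies and 0.81 in controls and gave 44 higher and 7 lower subunits in *bmm* flies and 47 higher and 5 lower in controls. RLE scaling gave 40 higher and 7 lower, and 38 higher and 7 lower. Under TMM, RLE, DESeq2 and library size, 19 subunits were called higher and 5 lower in males in both genotypes under every one. The 19 were 12 of complex I, all 4 of complex II and 3 of complex III. The 5 were *ATPsynC*, *ATPsynbeta*, *ATPsyngamma* and *ATPsyndelta* of complex V and *ND-ACP* of complex I.

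**Figure D3:**
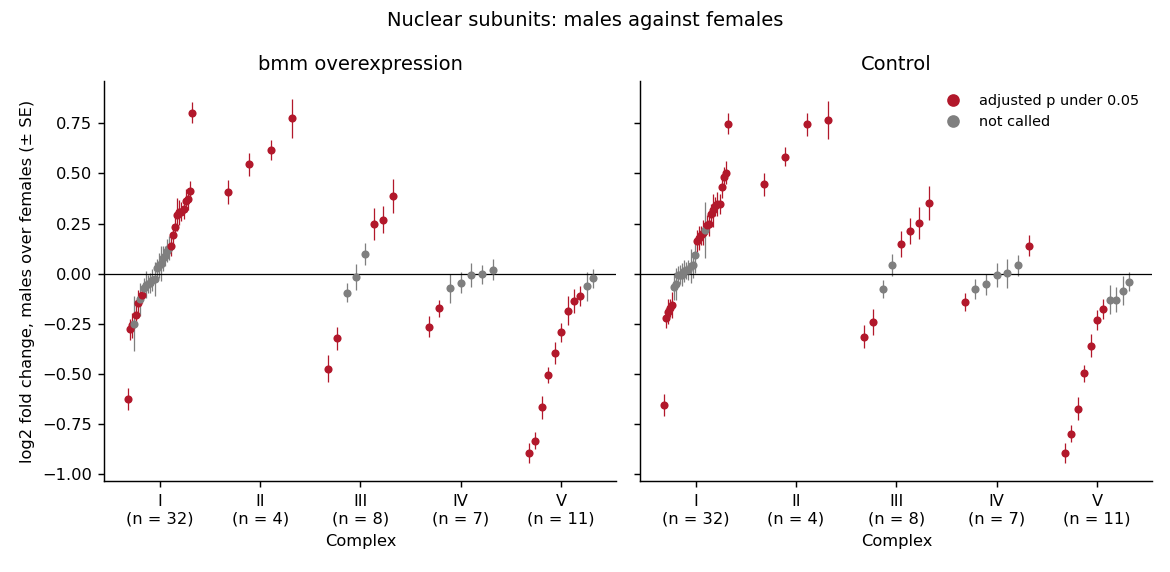
Log2 fold change of each nuclear subunit between males and females, with its standard error, by complex, in *bmm* flies (left) and in controls (right), under TMM scaling. Complex II lies wholly above 0 and complex V wholly below 0 in both panels, and *ND-51* (0.80 and 0.75) and *ND-ACP* (−0.62 and −0.65) are the ends of complex I. *ND-B8* is left out of both panels. Under library size alone, 44 subunits in *bmm* flies and 47 in controls were called higher in males.

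A share within a library does not depend on the scaling. Of the summed CPM of the 63 subunits, complex V made up 33.5%, 34.7% and 34.5% in *bmm* males against 47.0%, 45.4% and 45.7% in *bmm* females, and 34.3%, 33.2% and 32.9% in control males against 46.1%, 45.9% and 45.4% in control females. Complex II made up 7.82%, 7.52% and 7.31% in *bmm* males against 4.24%, 4.49% and 4.53% in *bmm* females, and 7.69%, 7.73% and 7.56% in control males against 4.38%, 4.52% and 4.62% in control females. Males and females did not overlap for either complex in either genotype. Complex I was also a larger share in males (means of 33.3% in *bmm* males against 27.3% in *bmm* females, and of 33.0% in control males against 26.8% in control females). Complex IV differed least, with means of 11.1% in *bmm* males against 10.4% in *bmm* females and of 11.3% in control males against 10.4% in control females. Shares within a library are tied, so a smaller share of complex V makes the other shares larger. The share of complex V rests largely on *ATPsynC* and *ATPsynbeta*. They averaged 2116 and 1984 CPM of its 6421 CPM in control females, and 1136 and 1241 CPM of its 4280 CPM in control males.

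Within complex V, the difference was largest in the ring, the catalytic head and the central stalk. *ATPsynC* was at 1153, 1175 and 1202 CPM in *bmm* males, against 2056, 2086 and 2095 CPM in *bmm* females, and at 1158, 1117 and 1132 CPM in control males, against 2047, 2228 and 2073 CPM in control females. Every female library was well above every male library. Its log2 difference was −0.90 in *bmm* flies (standard error 0.05, adjusted p = 1.4e-09) and −0.89 in controls (standard error 0.05, adjusted p = 1.3e-09). *ATPsyndelta* and *ATPsyngamma*, parts of the central stalk that turns within the head, had log2 differences of −0.83 and −0.51 in *bmm* flies and of −0.80 and −0.50 in controls. *ATPsynbeta* had −0.67 in both genotypes. *ATPsynCF6* and *ATPsynD* of the peripheral stalk were lower by less, at −0.40 and −0.29 in *bmm* flies and −0.36 and −0.23 in controls. In controls under library size alone, *ATPsynD* turned to 0.03, above 0, and with *bmm* to −0.03, neither of them called, while *ATPsynCF6* in controls was at −0.10 and not called (adjusted p = 0.090). The alpha subunit of the head, *blw*, which the symbol rule did not take, averaged 1035 CPM in *bmm* males against 1567 CPM in *bmm* females and 1001 CPM in control males against 1733 CPM in control females.

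In complex II, *SdhB*, the iron-sulfur subunit, was at 255, 215 and 220 CPM in *bmm* males, against 105, 143 and 136 CPM in *bmm* females, and at 221, 232 and 240 CPM in control males, against 128, 135 and 146 CPM in control females. The sexes were separate in both genotypes, with log2 differences of 0.77 and 0.77 (standard errors 0.10, adjusted p = 5.3e-06 in *bmm* flies and 5.7e-06 in controls). *SdhA*, the flavoprotein that binds succinate, had 0.62 in *bmm* flies and 0.58 in controls. The membrane anchors *SdhC* and *SdhD* had 0.55 and 0.41 in *bmm* flies and 0.74 and 0.45 in controls.

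In complex I, *ND-51*, the flavoprotein that binds NADH, had the highest log2 difference apart from *ND-B8*. It was at 506, 484 and 486 CPM in *bmm* males, against 247, 276 and 281 CPM in *bmm* females, and at 464, 456 and 465 CPM in control males, against 287, 264 and 275 CPM in control females. No male library came near the female ones, and the log2 difference was 0.80 in *bmm* flies (adjusted p = 9.0e-09) and 0.75 in controls (adjusted p = 1.8e-08). Also higher in both genotypes under every scaling were *ND-23*, an iron-sulfur subunit, with 0.41 in *bmm* flies and 0.48 in controls, and the accessory subunits *ND-13A* with 0.36 and 0.50, *ND-MWFE* with 0.37 and 0.43 and *ND-39* with 0.32 and 0.34. *ND-ACP*, the mitochondrial acyl carrier protein, which serves fatty acid synthesis as well as complex I, went the other way, at 122, 119 and 122 CPM in *bmm* males against 174, 178 and 178 CPM in *bmm* females and at 114, 119 and 122 CPM in control males against 202, 185 and 174 CPM in control females. Its log2 difference was −0.62 in *bmm* flies and −0.65 in controls. In complex III, *UQCR-11* had −0.47 in *bmm* flies, where it was called lower under every scaling, and −0.24 in controls, where it stood at −0.09 under RLE and turned to 0.02 under library size alone and was not called under every scaling. *UQCR-6.4* had −0.32 in both genotypes under TMM and −0.06 in both under library size alone, and was not called under every scaling in either.

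*ND-B8* behaved unlike the other subunits of complex I. Its counts were 18, 12 and 34 in *bmm* males, against 0, 1 and 1 in *bmm* females, and 19, 16 and 25 in control males, against 2, 0 and 2 in control females. Summed over libraries, its level in females was 5.35% of that in males, with an exact (Clopper-Pearson) 95% interval from 1.92% to 12.0% that covers counting error only. It was the lowest of the 63 subunits, and 71 bp of its exons lie opposite those of *Gs1l*. It did not pass the filter on low counts in females by themselves and entered the tests between the sexes through males.

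Several tissues move with these sex differences. The sum of 13 flight muscle genes was 4224 CPM in *bmm* males against 1473 CPM in *bmm* females and 4369 CPM in control males against 1473 CPM in control females (means of 3 libraries). In each genotype, 10 of the 13 were past both thresholds and higher in males, and 1 was past both and lower. Of all genes, 66.8% in *bmm* flies and 68.6% in controls were past both, in either direction. The sum of 11 ovarian germline genes was 645 CPM in *bmm* males against 1975 CPM in *bmm* females, and 677 CPM in control males against 2261 CPM in control females. The part of tissue make-up in the difference between complexes was not tested.

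The paralogues gave a different picture. All 18 were called higher in males in both genotypes, with every male library above every female library, where 51.7% of all genes were called higher in males in *bmm* flies and 53.6% in controls. Libraries of males all lay above those of females for 53.0% of genes in *bmm* flies and 53.4% in controls. All 18 were also past a log2 fold change of 1. Of all 13988 genes, 5994 in *bmm* flies and 6279 in controls were past both thresholds and higher in males. Of the 18, 17 did not pass the filter in females by themselves and entered this test through the male libraries. For these 17 a call of higher in males was close to fixed in advance. The backgrounds also hold genes of that kind, as 10488 passed the filter in females by themselves. Together the 18 paralogues had 76617 counts in the 6 male libraries and 335 in the 6 female libraries. Their summed level was 430, 403 and 391 CPM in *bmm* males against 1.56, 2.53 and 1.94 CPM in *bmm* females, and 386, 453 and 417 CPM in control males against 2.31, 1.64 and 1.79 CPM in control females. In males the paralogues supplied 3.12% ± 0.11 of the summed CPM of paralogues and subunits with *bmm* overexpression and 3.17% ± 0.23 in controls (SD, n = 3 each).

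**Figure D4:**
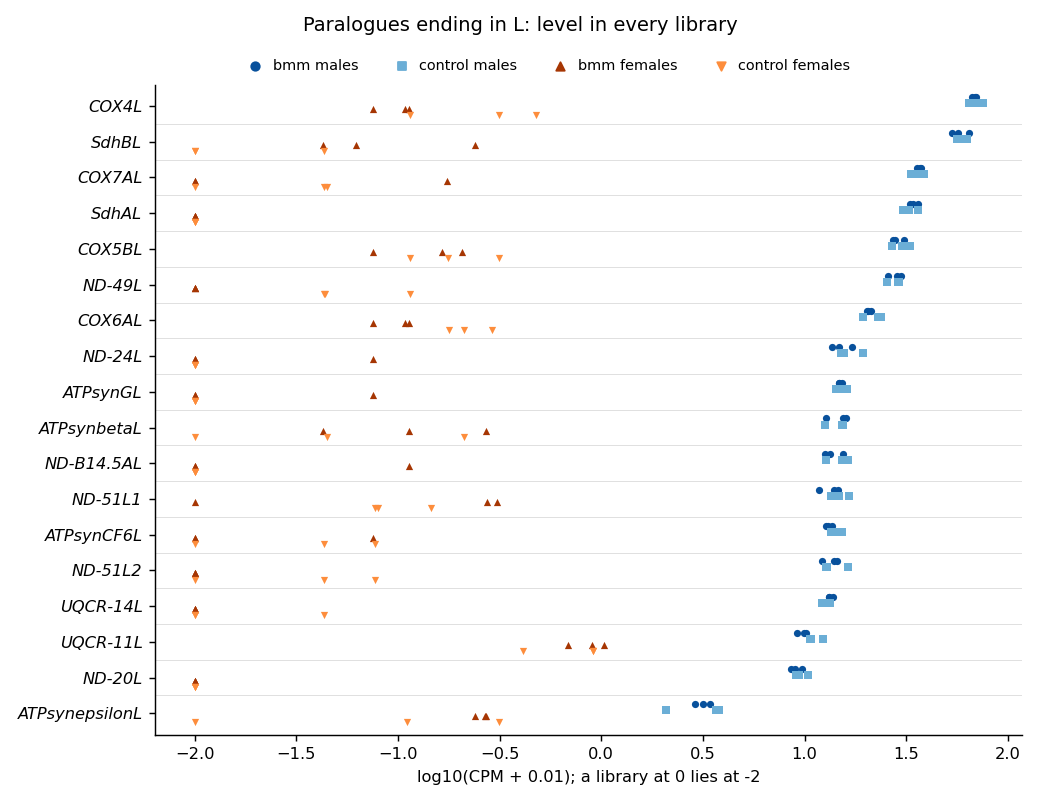
Level of each of the 18 paralogues in all 12 libraries, on a log10 scale of CPM + 0.01, with *bmm* males, control males, *bmm* females and control females from top to bottom within each row. Every male library lies to the right of every female library. *UQCR-11L* and *ATPsynepsilonL* come closest, and *SdhAL* and *ND-20L* are at 0 in all 6 female libraries.

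In females, 16 of the 18 paralogues were under 2% of their male level. *SdhAL*, a copy of the succinate dehydrogenase flavoprotein, and *ND-20L* had 0 counts in all 6 female libraries. With 3 counts over those libraries as the floor, *SdhAL* was at least 1880-fold and *ND-20L* at least 522-fold higher in males. In each female library, 9 of the 18 had at most 3 counts, so their female levels were at or under the floor of detection at this depth. The paralogues above 2% were *UQCR-11L* and *ATPsynepsilonL*. *UQCR-11L*, a single-exon copy of the hinge protein of complex III, had 13, 27 and 31 counts in *bmm* females and 27, 26 and 12 in control females, which was 7.63% of its male level. *ATPsynepsilonL* had 5, 8 and 7 counts in *bmm* females and 3, 0 and 9 in control females, or 6.09% of its male level, and was the least abundant paralogue in males, at 3.16 CPM.

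Most markers of the testis moved with the paralogues. Of 31 testis and sperm genes, such as *betaTub85D*, *dj* and the *Mst84D* genes, 26 were under 2% of the male level in females. Higher in females than that were *mia*, *topi*, *tomb* and *bol*, from 9.9% (*bol*) to 26% (*mia*) of the male level. *twe* went the other way, at 409% of its male level, with 19856 counts in the female libraries and 5395 in the male ones. In each genotype, 30 of the 31 genes, of which 25 did not pass the filter in females by themselves, were called higher in males and 1 lower. Among males, the sum of these genes was 7038, 6350 and 6699 CPM in *bmm* replicates 1, 2 and 3 and 6229, 7365 and 6829 CPM in control replicates 1, 2 and 3. The paralogues were likewise highest in control replicate 2 and lowest in control replicate 1. No testis was sampled apart from the rest of the fly, so the tissue that holds the paralogue RNA was not tested.

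The gene models of the paralogues differed from those of the subunits. In the BDGP6.54 annotation, the longest coding transcript has a single exon in 8 of 18 paralogues and in 1 of 63 subunits, and 3 or more exons in 3 paralogues and 49 subunits. A paralogue had fewer exons than its partner, the gene its symbol is derived from, in 14 of 18 pairs. The coding sequence was of like size, with a median of 495 bp in paralogues and 471 bp in subunits. Of the paralogues, 4 lie on the chromosome arm of their partner. *COX5BL* (2L, from 6559431 to 6560133) begins just past the end of *COX5B* (2L, from 6557800 to 6559308), and its 647 bp of exon are wholly opposite exons of *Trmt6*. A single paralogue, *SdhBL*, lies on X, as do 11 of the 63 subunits and 5 of the 17 partner genes.

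*bmm* overexpression changed no paralogue in males past the test. None of the 18 was called, none had an unadjusted p under 0.05, and DESeq2, limma-trend and the quasi-likelihood test also called 0. Fold changes ran from 0.86 to 1.04, with a median log2 fold change of −0.06 and standard errors from 0.06 to 0.24. The most abundant, *COX4L*, was at 69.6, 66.1 and 68.4 CPM in *bmm* males, within the range of control males at 64.5, 75.3 and 69.7 CPM. *SdhBL* was at 64.0, 56.8 and 53.3 CPM in *bmm* males and at 56.2, 62.9 and 58.7 CPM in control males. The groups overlapped for 17 of the 18, and over all genes tested in males 22.8% did not overlap. The exception was *UQCR-11L*, at 9.15, 9.92 and 10.1 CPM in *bmm* males and 10.7, 12.2 and 10.7 CPM in control males, with a log2 fold change of −0.21 (standard error 0.09, adjusted p = 0.57). It was also the single paralogue with enough counts to be tested in females, where its log2 fold change was 0.27 (adjusted p = 0.69). The test of the difference between sexes called none of the 18, and 3 had an unadjusted p under 0.05. That test could decide little for the paralogues, since 17 of them had too few counts to be tested in females. Standard errors of the log2 difference had a median of 1.08 and reached 175. *COX4L* was called there without control female replicate 2 (log2 difference 2.05, adjusted p = 0.045, against 0.14 with all libraries), on female counts of 2, 3 and 2 with *bmm* and of 14, 3 and 9 in controls.

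How much of a pair the paralogue supplies was measured as its share of the summed CPM per kb of paralogue and partner in males. For *ND-51L1* and *ND-51L2*, which have the same partner, the sum held *ND-51* and both copies. The median share over the 18 pairs was 9.80%, and the shares ran from 1.33% to 32.9%, each a mean of both genotypes. In 3 pairs the paralogue made up more than 25%. *UQCR-11L* made up 30.2%, 32.7% and 33.5% of its pair in *bmm* males and 33.3%, 35.4% and 32.04% in control males. *COX4L*, a copy of *COX4*, a nuclear subunit of cytochrome c oxidase, made up 27.4%, 28.8% and 28.5% in *bmm* males and 27.7%, 28.7% and 26.4% in control males. *ND-B14.5AL* made up 28.8%, 29.1% and 27.5% in *bmm* males and 24.5%, 28.04% and 24.7% in control males. Its partner is the subunit nearest to a call in males.

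The other shares were lower. The copies of complex IV subunits stood high, with means of 18.7% in *bmm* males and 18.2% in control males for *COX7AL*, of 18.1% in both for *COX5BL* and of 12.5% and 12.8% for *COX6AL* against its partner *levy*. *SdhBL* made up 13.6% in *bmm* males and 13.8% in control males, and *SdhAL* 9.12% and 8.72%. In complex I, *ND-24L* had 13.3% in *bmm* males and 13.1% in control males, *ND-49L* 9.45% and 9.88%, and *ND-20L* 8.22% and 8.49%. The copies of *ND-51*, described above for its difference between the sexes, held low shares, with 2.65% in *bmm* males and 2.92% in control males for *ND-51L2* and 1.92% and 2.28% for *ND-51L1*. *UQCR-14L* had 8.56% in *bmm* males and 7.79% in control males. In complex V, *ATPsynGL* made up 9.82% in *bmm* males and 10.0% in control males, *ATPsynCF6L* 7.22% and 7.75%, *ATPsynepsilonL* 3.88% and 3.84% against its partner *sun*, and *ATPsynbetaL* 1.32% and 1.34%. The *bmm* and control libraries overlapped in every pair but that of *ATPsynCF6L*, which lay lower in *bmm* males, at 7.38%, 7.24% and 7.04%, than in control males, at 7.40%, 8.38% and 7.46%. In females no paralogue made up more than 2.88% of its pair as a mean of both genotypes. The highest was *UQCR-11L*, with means of 3.08% in *bmm* females and 2.68% in control females. Shares depend on the length used. With coding length, an alternative chosen after seeing the data, in place of all exon sequence the share of *UQCR-11L* fell to 11.7%, since *UQCR-11* has 1613 bp of exon for 255 bp of coding sequence, while *COX4L* and *ND-B14.5AL* stood at 19.2% and 19.9%.

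**Figure D5:**
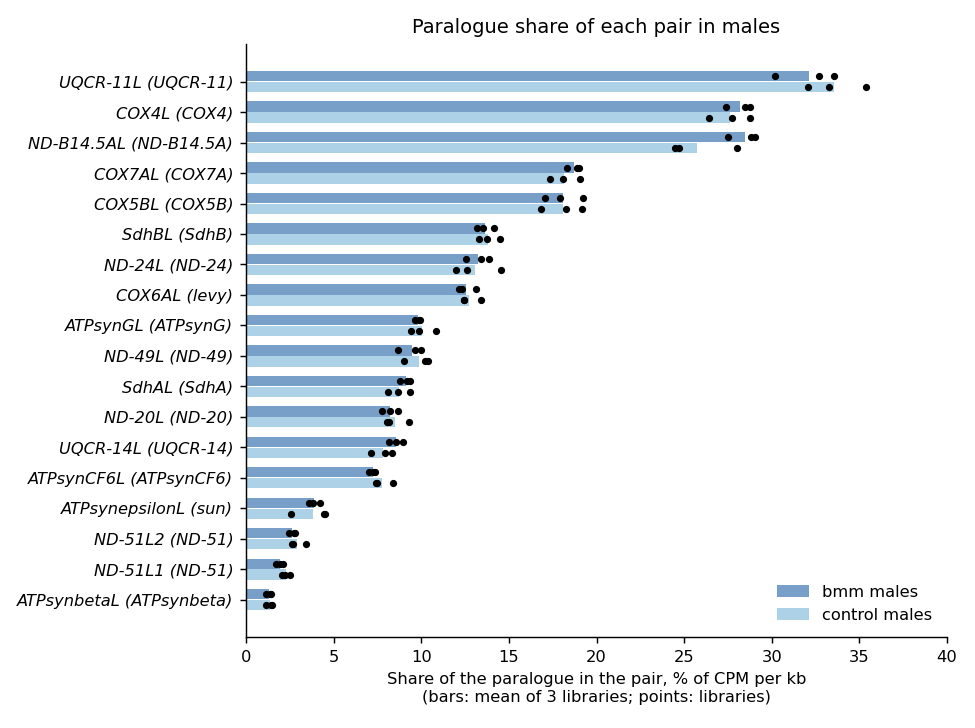
Share of each paralogue in the summed CPM per kb of exon of the paralogue and its partner (in parentheses), in *bmm* males (upper bar) and control males (lower bar). For *ND-51L1* and *ND-51L2* the sum holds *ND-51* and both copies. Bars are means of 3 libraries and points are libraries. The shares run from about 1.3% for *ATPsynbetaL* to 32.1% and 33.6% for *UQCR-11L*, and the genotypes overlap in 17 of 18 pairs.

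The genes that the paralogues derive from stood close to the other subunits. Of the 17 partner genes, 9 were called between the sexes in *bmm* flies, 3 higher and 6 lower in males, and 12 in controls, 7 higher and 5 lower. Over all genes tested, 91.5% were called in *bmm* flies and 92.5% in controls. The share of partner genes called was below that background in both genotypes. The median log2 difference of the partner genes was −0.02 in *bmm* flies and 0.01 in controls under TMM, beside −0.02 and 0.02 for all 63 subunits. Other genes of the chain with names outside the symbol rule included 3 with the same pattern as the paralogues. *Cyt-c-d*, the cytochrome c that the fly testis uses, was at 103, 84.9 and 95.1 CPM in *bmm* males and 92.8, 103 and 94.9 CPM in control males, with 10 counts in all in *bmm* females and 1 in control females. *knon*, a relative of the peripheral stalk subunit d that fly spermatids need, averaged 70.3 CPM in *bmm* males and 69.2 CPM in control males, with 1 count in *bmm* females and 1 in control females. *Cyt-c1L* averaged 19.8 CPM in *bmm* males and 20.6 CPM in control males, with 15 counts in *bmm* females and 10 in control females.

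Of the 13 mitochondrially encoded subunits, which complete complexes I, III, IV and V, 11 were tested. In females 2 were called, both higher with *bmm*, which were *mt:ND2* and *mt:ATPase6*, where 9.8% of all genes were called higher, and all 11 had a positive log2 fold change, with a median of 0.19. *mt:ATPase6* was at 1301, 1266 and 1263 CPM in *bmm* females, against 1213, 965 and 1101 CPM in control females. The groups were separate, with a log2 fold change of 0.25 and a standard error of 0.08 (adjusted p = 0.025). *mt:ND2* was counted far less, at 4.41, 4.82 and 3.97 CPM in *bmm* females against 1.30, 2.75 and 2.46 CPM in control females (log2 fold change 1.04, adjusted p = 0.0012). In males none was called, 7 were positive and 4 negative, and the median was 0.09. For 4 of the 11 every *bmm* male library lay above every control, which held for 1757 of all 13632 genes tested in males. The response of *mt:ND2* differed between the sexes (log2 difference −1.23, adjusted p = 0.047), and that of the other 10 was not called. The sum of the 13 was 19620, 20830 and 20300 CPM in *bmm* males against 18380, 18170 and 19380 CPM in control males, and 15440, 15480 and 13990 CPM in *bmm* females against 15430, 12540 and 12450 CPM in control females. The genotypes were thus separate in males and overlapped in females, where control replicate 1 stood at the level of the *bmm* libraries.

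Genes that feed or regulate the chain were counted beside the same backgrounds, which in females were 9.8% of all genes called higher and 4.41% lower and in males 4.31% called in all. Of 11 genes of the tricarboxylic acid cycle tested in females, 2 were called, both higher, and of 14 in males 1 was called, also higher. *Nc73EF*, a subunit of 2-oxoglutarate dehydrogenase, rose in both sexes. It was at 1069, 1049 and 1014 CPM in *bmm* males, against 825, 798 and 823 CPM in control males, and at 373, 376 and 357 CPM in *bmm* females, against 324, 306 and 325 CPM in control females. The groups were separate, with log2 fold changes of 0.34 in males (standard error 0.04, adjusted p = 0.0051) and 0.24 in females (standard error 0.04, adjusted p = 0.00083). *ScsbetaA*, of succinyl-CoA synthetase, rose in females (0.26, adjusted p = 0.00018). *Cyt-c-p*, the cytochrome c of somatic tissues, was at 295, 300 and 289 CPM in *bmm* females, against 268, 270 and 269 CPM in control females, a log2 fold change of 0.16 (adjusted p = 0.027). It was the 1 gene called among 6 tested genes of the chain with names outside the symbol rule. The other 5 had negative log2 fold changes in females, and the median of the 6 was −0.06. Of 7 regulators of mitochondrial biogenesis tested in females, 2 were called, both lower, which were *srl*, the fly homologue of PGC-1 (−0.21, adjusted p = 0.0056), and *mtTFB2*, a mitochondrial transcription factor (−0.36, adjusted p = 0.0050). In males 0 of 7 were called. *srl* averaged 21.9 CPM in *bmm* males against 362 CPM in *bmm* females and 33.7 CPM in control males against 426 CPM in control females. The part of the ovarian germline genes, also lower in *bmm* females, in the fall of *srl* and *mtTFB2* was not tested. Of 4 assembly factors tested, none was called in either sex.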

How the data were processed

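The authors trimmed reads of stranded mRNA libraries, aligned them to BDGP6.28 with HISAT2, filtered them by mapping quality and counted them per gene with featureCounts. Tool versions and the strand setting are not given in the sources used here. The authors deposited whole-number counts for 17807 gene symbols, used for all edgeR and DESeq2 tests, and a scaled signal for 14246, the count divided by 1 factor per library and called CPM, used for levels.

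Each sex was filtered with filterByExpr, scaled by TMM and compared by the exact test of edgeR 4.0.16 (R 4.3.3), with standard errors from the quasi-likelihood fit. Contrasts between sexes and the interaction used the quasi-likelihood test over 12 libraries. DESeq2 1.42.0, limma 3.58.1, other scalings, no filter, a replicate block and leaving out libraries were alternatives. Methods were tested on simulated data. The members and gene lists were chosen with earlier results of these data known. Named are up to 8 subunits with the lowest adjusted p per direction and comparison, the extremes of each complex, every paralogue with its partner, and examples from lists. Positions, exons and lengths are those of the BDGP6.54 annotation, matched by symbol for all 82 members. Replicates differed by more than sampling noise. No sequences or promoter motifs were analysed.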

Additional observations from a re-analysis of the deposited data

How the results depend on the processing

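In females, limma-trend called 0 subunits and the quasi-likelihood test with the replicate number as a block called 7, against 4. Correlations of same-numbered libraries lay between −0.08 and 0.13, so the numbers were not taken to pair the libraries, and the block changed no other call count by over 1.5 times. In males, DESeq2 called 1 subunit against 0. Without 1 library at a time, subunits called numbered 3 to 4 in females, 0 to 1 in males, 32 to 41 between the sexes with *bmm* and 34 to 40 in controls, and paralogues called by the interaction, at either threshold, 0 to 1. Subunits past both thresholds between the sexes, 1 in each genotype, numbered 0 under limma-trend in both genotypes. With library size alone they numbered 3 with *bmm* and 4 in controls, and under DESeq2 and RLE 2 with *bmm*. *ATPsynD* in controls had a log2 difference of 0.030 under library size alone, against −0.23. The median subunit between the sexes with *bmm*, −0.02, was above 0 under DESeq2 (0.19), RLE (0.19), library size (0.24), limma-trend (0.05) and no filter (0.01). The median interaction, −0.04, was above 0 under DESeq2 (0.03), RLE (0.03) and limma-trend (0.04). The cause of these changes was not tested beyond the scaling itself. Depth limits the female levels of the paralogues, and 3 libraries a group limit differences under about the standard errors given.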
